A study of Mus musculus with 8 samples.

Results

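Secretory IgA reaches the gut lumen through a pair of cell types, and the 7 genes described here span both. They were chosen by name, from the rows of the deposited count tables with the symbols Igha, Ighm, Igkc, Jchain, Mzb1, Cd79a and Pigr, and are 7 of the 40178 genes listed for the colon or the ileum. Igha, Ighm, Igkc, Jchain, Mzb1 and Cd79a are genes of B lineage cells, and Pigr is a gene of the epithelium. RNAseq was performed on intestinal epithelial cells (IECs), the cells that EDTA washes release from the gut wall, of the colon and the ileum of 4 mice. WTIEC mice were DDX5(+/+), Vil1Cre(+) and DDX5ΔIEC mice were DDX5(fl/fl), Vil1Cre(+), with 2 mice a genotype and 1 library from each tissue of each mouse, 8 libraries in all. All were 8 weeks old, and both genotypes carried the Cre transgene, which the Villin promoter drives in epithelial cells, so the B lineage cells of the DDX5ΔIEC mice are not its targets. Peyer's patches were removed from the ileum before the washes, and the washed cells were not sorted.

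Plasma cells of the lamina propria join IgA monomers through the J chain into polymers. The polymeric immunoglobulin receptor, the product of Pigr, binds these polymers at the basal side of the epithelial cell, carries them to the lumen and is cleaved there, so that part of it stays with the antibody as secretory component. In the gut the antibody genes are expressed by B lineage cells, chiefly plasma cells that lie under the epithelium, whereas the receptor is expressed by the epithelium itself. Which B lineage cells gave the RNA counted here was not tested. Pigr was abundant in every library, and the 6 B lineage genes were rare in every library, which sets how precisely each can be measured.

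Pigr lies on the plus strand of chr1:130826684-130852249 in GRCm38. Its promoter is shown because it is the 1 member that the sampled epithelium transcribes at a high level. The 250 bases before its start site, chr1:130826434-130826683 on the plus strand of GRCm38.p6, are taken from RefSeq, with the E-box CACGTG, a motif that the USF factors bind, in capitals.

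Pigr: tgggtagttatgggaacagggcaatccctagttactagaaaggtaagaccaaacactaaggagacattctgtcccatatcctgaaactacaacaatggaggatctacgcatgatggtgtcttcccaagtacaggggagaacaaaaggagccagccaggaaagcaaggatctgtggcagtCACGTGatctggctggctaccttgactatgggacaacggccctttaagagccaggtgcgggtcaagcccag

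The E-box begins 71 bases before the start site and reads the same on both strands. Searched on both strands, CACGTG was present in 6.04% of 32536 RefSeq promoter windows of the same length. An interferon response element AAANNGAAA, the NF-kappaB consensus and the octamer ATGCAAAT, which Oct factors bind in immunoglobulin promoters, had no match in this window. They were present in 9.35%, 3.92% and 1.62% of the windows. A promoter entry was found for 3 members, Pigr, Jchain and Cd79a, and the windows of Jchain and Cd79a held none of these 4 motifs.

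Total counts on genes ranged from 11571061 to 22984283 per library. Levels are given as counts or as CPM, the counts scaled to a common library size after TMM, and genes are compared with each other only per kilobase of exon. Ddx5, the deleted gene, was at 737 ± 45.9 CPM in WTIEC colon (SD, n = 2) and 360 ± 8.91 CPM in DDX5ΔIEC colon. In the ileum it was at 699 ± 0.0666 and 333 ± 9.45 CPM. Defining epithelial genes were present throughout, with a summed level of 11570 to 18911 CPM for 10 genes of the epithelium. The libraries differed in other respects. Between 21705 and 31959 genes had at least 1 count, with the highest numbers in WTIEC ileum replicate 1 (31959) and DDX5ΔIEC ileum replicate 2 (30880). The repeat-like rows Gm10800, Gm10801 and Gm21738 together took at most 0.261% of the counts in the colon, 4.04% and 3.93% in WTIEC ileum, and 0.226% and 19.5% in DDX5ΔIEC ileum replicates 1 and 2. Where bulk RNA falls, fewer cells of a type and less RNA per cell cannot be told apart, and the same holds where it rises.

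The first question was whether the epithelium without DDX5 kept its IgA receptor. With all libraries Pigr did not pass the test in any comparison, and its level differed by at most 1.30-fold between any 2 of the 8 libraries. In the colon Pigr was at 3772 and 4093 CPM in WTIEC replicates 1 and 2 and at 3155 and 3905 CPM in the DDX5ΔIEC replicates. In the ileum it was at 4007 and 3218 CPM in WTIEC and at 3699 and 3192 CPM in DDX5ΔIEC. The genotypes overlapped in both tissues, and the 2 tissues overlapped as well. In order of group means, WTIEC colon stood at 3933 ± 226 CPM, WTIEC ileum at 3613 ± 558, DDX5ΔIEC colon at 3530 ± 531 and DDX5ΔIEC ileum at 3446 ± 359 (SD, n = 2 each), and no neighbours in this order differed by more than the larger of their SDs.

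The log2 difference of Pigr between DDX5ΔIEC and WTIEC was -0.17 ± 0.11 (SE) in the colon, with a 95% confidence interval from -0.46 to 0.12 (edgeR's quasi-likelihood test, adjusted p = 0.581). In the ileum it was -0.06 ± 0.25, with an interval from -0.62 to 0.50 (adjusted p = 0.959). The ileum differed from the colon by -0.13 ± 0.16 in WTIEC and by -0.01 ± 0.29 in DDX5ΔIEC on the same scale (adjusted p = 0.537 and 0.990). Without DDX5ΔIEC colon replicate 2, the colonic difference was -0.33, and without DDX5ΔIEC colon replicate 1 it was -0.02 (edgeR). Each of these fits rests on 1 DDX5ΔIEC colon library, and the size of the difference depended on which one was kept. The interval in the colon is the narrower of the 2 genotype intervals and leaves room for a decrease of up to 0.46 and an increase of up to 0.12 on the log2 scale.

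**Figure D1:**
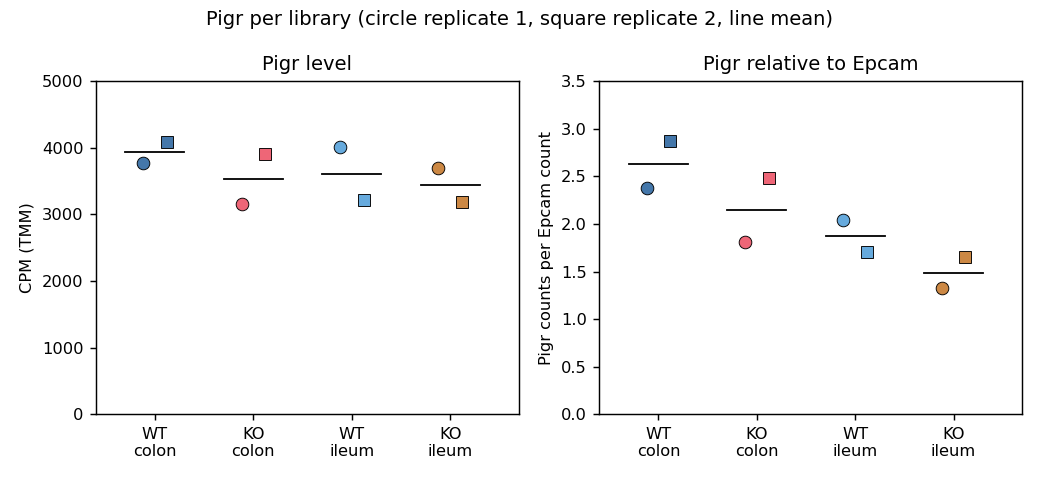
Pigr in each library, as TMM-scaled CPM (left) and as Pigr counts per Epcam count (right), with circles for replicate 1, squares for replicate 2, lines for group means and KO for DDX5ΔIEC. The CPM stay between 3155 and 4093 with overlapping genotypes, while the ratio to Epcam runs from 2.87 in a WTIEC colon library down to 1.32 in a DDX5ΔIEC ileum library.

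Pigr took between 0.258% and 0.457% of all counts of a library. The highest share was that of WTIEC colon replicate 2, with a 95% Wilson interval from 0.454% to 0.460%, which covers counting error only. Among protein coding genes, Pigr ranked between 9 and 16 by CPM and between 17 and 38 by CPM per kilobase. Its rank was better in each colon library than in each ileum library on both scales. Relative to Epcam, a surface protein of epithelial cells, Pigr stood at 2.38 and 2.87 counts per Epcam count in WTIEC colon and at 1.81 and 2.48 in DDX5ΔIEC colon. In the ileum the ratio was 2.04 and 1.71 in WTIEC and 1.32 and 1.65 in DDX5ΔIEC. By this ratio the genotypes overlapped in the colon and did not overlap in the ileum. The ratios to Cdh1, which encodes E-cadherin, and to Vil1, a protein of the brush border, gave the reverse. Per Cdh1 count, Pigr stood at 4.37 and 4.90 in WTIEC colon against 3.09 and 3.96 in DDX5ΔIEC colon, and at 4.01 and 3.04 against 3.72 and 2.69 in the ileum. Per Vil1 count, it stood at 5.83 and 6.29 against 4.62 and 5.70 in the colon, and at 1.69 and 1.45 against 1.32 and 1.68 in the ileum. Whether the genotypes overlap thus depended on the epithelial gene used as the base.

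Genes around Pigr were read from lists of its transport route and of the signals known to act on it. Of 13 genes of vesicle transport and of other immunoglobulin receptors, 13 were tested in the colon and 10 were tested in the ileum, where as in the colon none passed an adjusted p of 0.05 between genotypes. The median log2 difference of this list was -0.05 in the colon and -0.07 in the ileum, beside medians of -0.000415 and -0.00457 over all genes tested. The smallest unadjusted p in the colon belonged to Rab3d, a vesicle GTPase of secretory cells, at -0.26 ± 0.08 (SE, edgeR adjusted p = 0.342). In the ileum it belonged to Fcgrt, the heavy chain of the neonatal Fc receptor that carries IgG, at 0.30 ± 0.14 (adjusted p = 0.434). Between tissues some of its genes passed in both genotypes. Rab17, a GTPase of polarised epithelial transcytosis, was higher in the ileum by 2.05 ± 0.12 in WTIEC and 1.90 ± 0.20 in DDX5ΔIEC on the log2 scale (adjusted p = 1.96e-06 and 0.00203). Rab3d was lower there by -1.29 ± 0.09 and -1.08 ± 0.13, and Fcamr, a receptor for IgA and IgM, by -3.46 ± 0.42 and -2.56 ± 0.42. In WTIEC 6 of the 13 genes were higher and 5 lower in the ileum, beside 47.4% of all genes called in either direction, among them Myo5b, a motor of recycling vesicles, at 0.83 ± 0.09. In DDX5ΔIEC 3 were higher and 4 lower, beside 30.4% of all genes called, among them Rab11fip5, an adaptor of recycling vesicles, at -2.32 ± 0.48.

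Of 15 genes of signals known to act on Pigr, all 15 were tested in both tissues and none passed the adjusted test between genotypes. Over all genes tested, 0% passed in the colon and 0.697% in the ileum, so this says little about these genes. Ifngr1, a chain of the interferon gamma receptor, stood at 0.45 ± 0.08 in the colon (unadjusted p = 0.00293, edgeR adjusted p = 0.260), and Il4ra, a chain of the receptor for IL-4 and IL-13, at -0.55 ± 0.12 (adjusted p = 0.286). In the ileum the NF-kappaB subunit gene Rela stood at 0.35 ± 0.16 and Nfkb2 at 0.29 ± 0.14 (adjusted p = 0.406 and 0.426). Usf1 and Usf2, named here because of the E-box printed above, encode the USF factors. The colonic difference of Usf1 was -0.14 ± 0.10 and the ileal one 0.10 ± 0.15, and those of Usf2 were 0.15 ± 0.12 and -0.04 ± 0.16, with edgeR adjusted p-values of 0.622 to 0.952. In the ileum against the colon 6 of the 15 genes were higher and 0 lower in WTIEC, a share near the 47.4% of all genes called. Tnfrsf1a, a TNF receptor, was higher by 1.56 ± 0.11, Il4ra by 1.40 ± 0.10, Nr3c1, the glucocorticoid receptor, by 1.00 ± 0.08 and Relb by 0.997 ± 0.0872. In DDX5ΔIEC 5 were higher and 0 lower, again near the 30.4% of all genes called, with Tnfrsf1a at 1.88 ± 0.15, Il4ra at 1.82 ± 0.21, Relb at 1.18 ± 0.13 and Stat6, which IL-4 and IL-13 activate, at 0.73 ± 0.14.

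The B lineage genes were far lower, and Pigr stood 441 to 2939 times above Igha per kilobase. Igha, the constant region of the IgA heavy chain, lies on the minus strand of chr12:113254830-113260236 in GRCm38, and held 423 counts over all 8 libraries. Igkc, the constant region of the kappa light chain on chr6:70726435-70726966, held 162 counts. Jchain, on chr5:88519809-88527891, held 116 counts, and Ighm, the constant region of the IgM heavy chain on chr12:113418558-113422730, held 92. Mzb1, a chaperone of antibody secretion, held 7 counts in all and was at 0 in 4 libraries. Cd79a, a signalling chain of the B cell receptor on chr7:24897381-24902197, held 6 counts and was at 0 in 5 libraries. A count of 0 allows up to 3 counts, which is 0.131 to 0.259 CPM at the total of these libraries, so neither gene was tested and a difference in them was not detectable at this depth. Per kilobase Igkc was the highest of the 6 in 7 libraries, and in WTIEC colon replicate 1 Ighm was, at 0.528 CPM per kilobase beside 0.413 for Igha and 0.296 for Igkc.

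**Figure D2:**
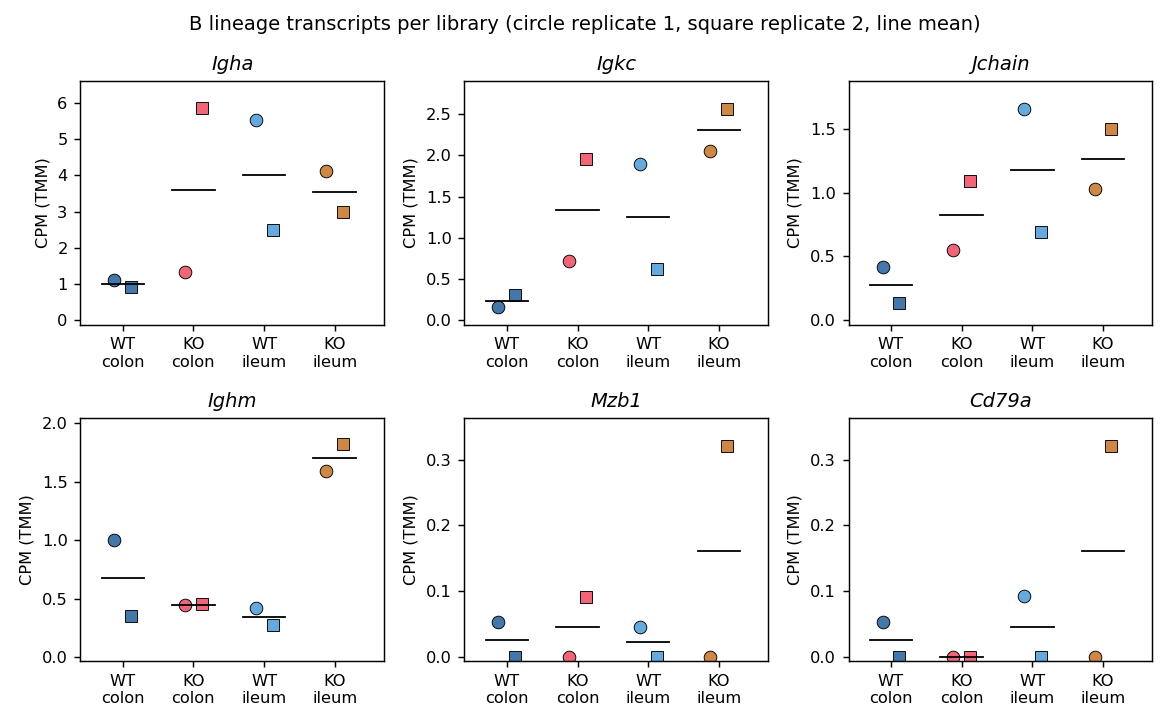
TMM-scaled CPM of the 6 B lineage genes in each library, with circles for replicate 1, squares for replicate 2, lines for group means and KO for DDX5ΔIEC. Igha, Igkc and Jchain are lowest in WTIEC colon and spread widely in DDX5ΔIEC colon and WTIEC ileum, while Ighm is highest in both DDX5ΔIEC ileum libraries.

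In the colon, the antibody genes of IgA plasma cells were higher in both DDX5ΔIEC libraries than in both WTIEC libraries, but no member passed the adjusted test and 1 of the 2 DDX5ΔIEC mice had the higher level of each. How many of all genes separated the genotypes in this way was not counted, so the separation alone says little about these genes. Igha had 21 and 21 counts in WTIEC and 24 and 129 in DDX5ΔIEC, which is 1.10 and 0.923 CPM against 1.32 and 5.87 CPM. The DDX5ΔIEC replicate 1 lay just above the WTIEC libraries, and replicate 2 well above them. Igkc had 3 and 7 counts in WTIEC and 13 and 43 in DDX5ΔIEC, at 0.157 and 0.308 CPM against 0.716 and 1.96 CPM. Here both DDX5ΔIEC libraries stood apart from WTIEC. Jchain had 8 and 3 counts in WTIEC and 10 and 24 in DDX5ΔIEC, at 0.420 and 0.132 CPM against 0.551 and 1.09 CPM. Ighm did not follow them, with 19 and 8 counts in WTIEC and 8 and 10 in DDX5ΔIEC, and was not tested in the colon because its counts were too low for the filter.

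The log2 difference between DDX5ΔIEC and WTIEC colon was 2.47 ± 0.44 (SE) for Igkc, 1.61 ± 0.61 for Igha and 1.60 ± 0.72 for Jchain. Their adjusted p-values were 0.260, 0.408 and 0.460 (edgeR's quasi-likelihood test, Benjamini-Hochberg over 15362 genes). Of the 4 members tested, 0 had an adjusted p under 0.05, beside 0% of all genes tested. At an unadjusted p under 0.05, 1836 genes passed, and DESeq2 with the same terms gave 117 genes at an adjusted p under 0.05, none of them a member. The study used as its criterion a log2 difference of at least 0.5 with an unadjusted p under 0.05. At this criterion 2 of the 4 members passed, Igkc and Igha, beside 6.71% of all genes tested. By edgeR the unadjusted p was 0.00274 for Igkc (adjusted p = 0.260) and 0.0460 for Igha (adjusted p = 0.408). Without DDX5ΔIEC colon replicate 2 the log2 difference of Igha was 0.38 and that of Igkc 1.55, and 0 members met the criterion. With 1 or the other WTIEC colon library left out, 1 member met it. Without DDX5ΔIEC colon replicate 1 the log2 difference was 2.53 for Igha, 2.99 for Igkc and 2.01 for Jchain. In these fits the lone DDX5ΔIEC library is assumed to vary like the WTIEC libraries.

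Lists of other cell types were read in the same colon libraries. The summed level of 12 B cell genes was 5.05 to 5.82 CPM in WTIEC and 5.12 to 5.92 CPM in DDX5ΔIEC, with 1 gene of the list tested, Bach2, at 0.10 ± 0.20 on the log2 scale. Bach2, which T cells also express, gave 4.45 of 5.44 CPM of this sum on average in WTIEC and 4.79 of 5.52 CPM in DDX5ΔIEC. The sum thus follows Bach2 more than the other genes of the list. The defining B cell marker Ms4a1, which encodes CD20, was close to 0, at 2 and 1 counts in WTIEC and 2 and 2 in DDX5ΔIEC. The summed level of 10 T cell genes was 39.8 to 53.9 CPM in WTIEC and 8.71 to 21.5 CPM in DDX5ΔIEC, and all 8 genes tested had a negative log2 difference, with none past the adjusted test. Among them Ptprc, which encodes CD45, was at -1.43 ± 0.30 and Cd3d, a chain of the T cell receptor complex, at -1.99 ± 0.51 (edgeR adjusted p = 0.269 and 0.319). At the criterion used in the study, 6 of the 8 T cell genes tested were lower and 0 higher, beside 6.71% of all genes. The summed level of 10 genes of stroma and endothelium was 21.5 to 24.4 CPM in WTIEC and 26.7 to 35.5 CPM in DDX5ΔIEC, but 5 of its 7 genes tested had a negative log2 difference and their median was -0.65. Pdgfrb, a receptor of pericytes and fibroblasts, went from 5.82 and 6.07 CPM to 19.9 and 16.9 CPM, and stood at 1.61 ± 0.16 beside Pecam1, which encodes CD31, at 0.88 ± 0.32 (edgeR adjusted p = 0.132 and 0.401). The myeloid list was at 32.7 to 36.5 CPM in WTIEC and 22.0 to 31.2 CPM in DDX5ΔIEC, with all 4 genes tested negative and none called, Itgam at -1.39 ± 0.55 and Cd14 at -0.34 ± 0.17. Most of this sum was Cd14, with 29.4 of 34.6 CPM on average in WTIEC and 23.6 of 26.6 CPM in DDX5ΔIEC. None of the lists for follicle and germinal centre (3 tested), M cells (4 tested) and epithelium (10 tested) held a called gene. Their genes with the smallest p were S1pr2 at -0.47 ± 0.36 and Bcl6 at 0.25 ± 0.34, Spib at -0.75 ± 0.20 and Tnfrsf11a at -0.22 ± 0.08, and Krt20 at 0.31 ± 0.10 and Krt18 at -0.28 ± 0.10. The part of these cells in the Igha, Igkc and Jchain levels was not tested.

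**Figure D3:**
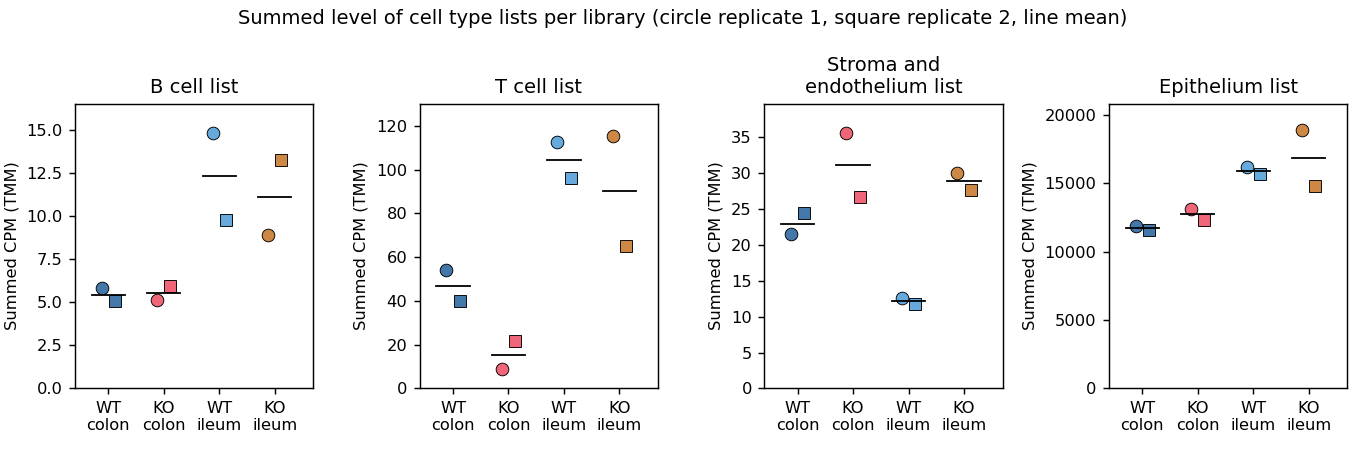
Summed TMM-scaled CPM of the lists for B cells (12 genes), T cells, stroma and endothelium, and epithelium (10 genes each) in each library, with circles for replicate 1, squares for replicate 2, lines for group means and KO for DDX5ΔIEC. The B cell list lies between 5.05 and 5.92 CPM in all colon libraries, whereas the T cell list is lower in both DDX5ΔIEC colon libraries than in both WTIEC colon libraries. In the mean of every group, most of the B cell sum is Bach2, which T cells also express.

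In the ileum Igha and Jchain overlapped between the 2 genotypes, whereas Ighm and Igkc were higher in both DDX5ΔIEC libraries. Here, too, the share of all genes that separated the genotypes in this way was not counted. Igha had 120 and 36 counts in WTIEC and 44 and 28 in DDX5ΔIEC, at 5.53 and 2.49 CPM against 4.12 and 2.99 CPM. Both DDX5ΔIEC libraries lay between the WTIEC libraries. Jchain was at 1.66 and 0.693 CPM in WTIEC and 1.03 and 1.497 CPM in DDX5ΔIEC, again within the WTIEC range. Igkc was at 1.89 and 0.623 CPM in WTIEC and 2.06 and 2.57 CPM in DDX5ΔIEC, where both libraries lay above WTIEC. Ighm had 9 and 4 counts in WTIEC and 17 and 17 in DDX5ΔIEC, at 0.415 and 0.277 CPM against 1.59 and 1.82 CPM. The 2 DDX5ΔIEC ileum libraries held the highest Ighm levels of the 8 libraries, although they had the lowest total counts.

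The log2 difference between DDX5ΔIEC and WTIEC ileum was 2.23 ± 0.52 (SE) for Ighm, with a 95% confidence interval from 1.09 to 3.37 and an adjusted p of 0.0976 (edgeR, over 14068 genes). For Igkc it was 0.89 ± 0.48 (adjusted p = 0.493), for Jchain 0.10 ± 0.51 (adjusted p = 0.969) and for Igha -0.14 ± 0.30 (adjusted p = 0.911). Of 5 members tested, 0 had an adjusted p under 0.05, beside 0.697% of all genes tested, 98 genes. At the criterion used in the study 1 member passed, Ighm (edgeR unadjusted p = 0.00123, adjusted p = 0.0976), beside 7.35% of all genes tested. The adjusted p of Ighm rested on the settings: it was 0.406 without the replicate number as a block and 0.0108 with no filter on low counts. DESeq2 gave no adjusted p for it.

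The B cell list held 9.77 to 14.8 CPM in WTIEC ileum and 8.89 to 13.3 CPM in DDX5ΔIEC ileum, with 2 genes tested and 0 called. Bach2 gave 9.50 of 12.3 CPM of this sum on average in WTIEC ileum and 6.80 of 11.1 CPM in DDX5ΔIEC ileum. The sum thus does not show how the other genes of the list moved. Ms4a1 had 2 and 1 counts in WTIEC and 2 and 3 in DDX5ΔIEC, and Cd79b, the partner of Cd79a, 9 and 4 against 8 and 5. Pax5, a transcription factor of B cells, had 6 and 4 counts in WTIEC and 1 and 15 in DDX5ΔIEC. As CPM, Ms4a1 and Cd79b were also higher in both DDX5ΔIEC ileum libraries than in both WTIEC libraries, whereas Pax5 overlapped. Neither Ms4a1 nor Cd79b was tested. Ms4a1 rests on at most 3 counts a library, and the counts of Cd79b themselves overlapped between the genotypes. The part of these B cell genes in the Ighm level was not tested. The list of follicle and germinal centre genes summed to 13.5 to 16.5 CPM in WTIEC ileum and 13.4 to 16.3 CPM in DDX5ΔIEC ileum, with 3 of 8 genes tested and none called. Those 3 were Bcl6, at 59 to 197 counts over all 8 libraries, Mybl1, at 18 to 87, and S1pr2, at 4 to 38. S1pr2 was at -0.60 ± 0.51 and Mybl1 at -0.39 ± 0.36 between genotypes (edgeR adjusted p = 0.706 and 0.730). Of the other genes of the list, Fcer2a, which encodes CD23, had 3 counts in DDX5ΔIEC ileum replicate 2 and 0 in the other libraries, and Cr2, a complement receptor of B cells and follicular dendritic cells, had 0 to 6 counts. Gp2, a receptor of M cells, which cover the Peyer's patches, had 0 to 7 counts. Of the M cell list 3 genes were tested in the ileum and none was called, with Spib, a transcription factor of M cells and B cells, at -0.69 ± 0.16 and Tnfrsf11a at -0.18 ± 0.15 (adjusted p = 0.100 and 0.704).

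Some genes of other cell types also stood higher in both DDX5ΔIEC ileum libraries. Pdgfrb, a receptor of pericytes and fibroblasts, was the single gene of all lists that was called between genotypes. It stood at 4.47 and 7.07 CPM in WTIEC ileum and 20.0 and 21.3 CPM in DDX5ΔIEC ileum, a log2 difference of 1.88 ± 0.20 (edgeR adjusted p = 0.00328), and was 1 of 4 genes tested of the list of stroma and endothelium. That list summed to 11.8 to 12.5 CPM in WTIEC and 27.7 to 30.0 CPM in DDX5ΔIEC, a rise that was mostly Pdgfrb itself. The other genes of the list that were tested were not called, Col3a1 at 0.27 ± 0.46, Vim at 0.22 ± 0.31 and Pecam1 at -0.47 ± 0.52. Pdgfrb also stood at 1.61 ± 0.16 in the colon (edgeR adjusted p = 0.132). Lyz2, a lysozyme of macrophages, was at 0.922 and 0.208 CPM in WTIEC ileum and 2.81 and 2.35 CPM in DDX5ΔIEC ileum, a log2 difference of 2.18 ± 0.49 (edgeR adjusted p = 0.0894), close to that of Ighm. The other gene of the myeloid list with the smallest p was Cd14, at 0.33 ± 0.21 (adjusted p = 0.583). The myeloid list as a whole was at 12.8 to 19.5 CPM in WTIEC and 17.2 to 23.6 CPM in DDX5ΔIEC, with 0 of 6 genes called. The T cell list was at 96.2 to 113 CPM and 64.9 to 115 CPM, with 0 of 8 called, Ptprc at -0.41 ± 0.16 and Gzma, a granzyme, at -0.32 ± 0.19 (adjusted p = 0.326 and 0.549). None of the 10 epithelial genes was called, with Cldn3 at 0.30 ± 0.16 and Cldn7 at 0.34 ± 0.19. The part of these genes in the Ighm level was not tested.

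Ileum and colon of the same mice were compared to ask where the IgA genes were expressed. In WTIEC mice, Igha, Jchain and Igkc were higher in the ileum, in both mice, and passed the test. The log2 difference was 1.93 ± 0.30 for Igha, 2.08 ± 0.45 for Jchain and 2.32 ± 0.59 for Igkc (SE), with adjusted p-values of 0.000882, 0.00545 and 0.0115 (edgeR with the mouse as a block). By mouse, Igha was 5.02-fold and 2.70-fold higher in the ileum, Igkc 12.01-fold and 2.03-fold, and Jchain 3.95-fold and 5.25-fold. Of 4 members tested 3 were higher, beside 47.4% of all genes tested that passed in either direction. The calls of Igkc and Jchain were lost in DESeq2 (adjusted p = 0.134 and 0.145), where Igha remained called (adjusted p = 0.00875). Without WTIEC ileum replicate 1, which held the higher counts of the 2 ileal libraries, Igkc and Jchain were no longer called (adjusted p = 0.209 and 0.186) at log2 differences of 1.36 for both, and without WTIEC colon replicate 2 none of the 3 was (adjusted p = 0.0574 for Igha).

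Lists of other cell types also differed between WTIEC ileum and colon, in both directions, beside 47.4% of all genes tested that were called. The called shares of the myeloid and epithelium lists lay near that of all genes. The B cell list was at 9.77 to 14.8 CPM there and at 5.05 to 5.82 CPM in WTIEC colon, and of its 2 genes tested Bach2 was higher, by 1.07 ± 0.20 on the log2 scale (edgeR adjusted p = 0.00220). Bach2 is also expressed in T cells, and on average it made up most of the B cell sum in both tissues. The T cell list was at 96.2 to 113 CPM in the ileum and 39.8 to 53.9 CPM in the colon, with 3 of 8 genes called higher and 0 lower, Ptprc by 1.41 ± 0.16, Gzma by 1.43 ± 0.17 and Gzmb by 0.73 ± 0.24. This share is under the 47.4% of all genes called. Ptprc gave 56.9 of 104 CPM of the T cell sum on average in WTIEC ileum and 21.0 of 46.9 CPM in WTIEC colon. The list of stroma and endothelium was at 11.8 to 12.5 CPM in the ileum and 21.5 to 24.4 CPM in the colon, with 0 of 7 higher and 4 lower, Col3a1 at -2.39 ± 0.31, Col1a1 at -2.47 ± 0.41, Col1a2 at -2.02 ± 0.43 and Dcn at -1.89 ± 0.57. The myeloid list was at 12.8 to 19.5 CPM and 32.7 to 36.5 CPM, with 3 of 8 higher (Adgre1 at 4.21 ± 0.79, Itgax at 1.55 ± 0.34 and Itgam at 1.51 ± 0.27) and 1 lower (Cd14 at -2.23 ± 0.16). Cd14 gave 29.4 of 34.6 CPM of this sum on average in WTIEC colon and 6.25 of 16.2 CPM in WTIEC ileum. The M cell list was at 136 to 157 CPM and 236 to 260 CPM, with 1 of 4 higher (Spib at 2.28 ± 0.13) and 3 lower (Ccl20 at -2.90 ± 0.32, Anxa5 at -1.61 ± 0.11 and Tnfrsf11a at -1.01 ± 0.10). Of the follicle list 1 of 3 was higher, Bcl6 at 1.54 ± 0.22, and of the epithelium list 4 of 10 were, Vil1 at 1.82 ± 0.13, Krt20 at 1.57 ± 0.11, Cldn7 at 0.52 ± 0.10 and Epcam at 0.35 ± 0.13. The number of genes with at least 1 count was also larger in WTIEC ileum, at 31959 and 26974, than in WTIEC colon, at 23628 and 23185. The part of these differences in the result was not tested.

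In DDX5ΔIEC mice only Ighm passed between the tissues. It was higher in the ileum by 1.93 ± 0.47 on the log2 scale (SE, adjusted p = 0.0299), 3.61-fold and 3.99-fold by mouse, and was 1 of 5 members tested, beside 30.4% of all genes tested. DESeq2 gave an adjusted p of 0.207 for Ighm, and leaving out 1 library at a time gave 0.0803 to 0.136. Igha was at 0.25 ± 0.62, Igkc at 0.90 ± 0.44 and Jchain at 0.66 ± 0.46 (edgeR adjusted p = 0.788, 0.181 and 0.327). Igha was 3.11-fold higher in the ileum of 1 mouse and 0.510-fold in the other, so its direction differed between the mice.

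Markers of other cells also differed between the tissues of DDX5ΔIEC mice, beside 30.4% of all genes tested that were called in either direction. The called shares of the list of stroma and endothelium and of the epithelium list lay near that of all genes. The T cell list was at 64.9 to 115 CPM in the ileum and 8.71 to 21.5 CPM in the colon, with 5 of 7 genes higher and 0 lower, among them Ptprc by 2.45 ± 0.26, Cd3e by 2.28 ± 0.58, Cd8a by 2.80 ± 0.74 and Gzma by 3.61 ± 1.01 on the log2 scale. Of 5 myeloid genes tested, Itgax was higher by 3.30 ± 0.58 and Lyz2 by 2.03 ± 0.44, and Cd14 was at -1.55 ± 0.33. Of the B cell list 1 gene was tested, Bach2, at 0.52 ± 0.23, and was not called (edgeR adjusted p = 0.150). Of the stroma and endothelium list 0 of 6 genes were higher and 2 lower, Pecam1 at -2.03 ± 0.42 and Col3a1 at -1.51 ± 0.44. Of 4 M cell genes, Spib was higher by 2.35 ± 0.20, and Anxa5, Tnfrsf11a and Ccl20 were lower at -1.43 ± 0.15, -0.96 ± 0.13 and -2.41 ± 0.46. Of 3 follicle genes Bcl6 was higher by 1.37 ± 0.22, and of 10 epithelial genes 3 were, Vil1 by 1.78 ± 0.26, Krt20 by 1.44 ± 0.29 and Cldn7 by 0.81 ± 0.19. In WTIEC mice Ighm was not tested between the tissues. It had 19 and 8 counts in WTIEC colon and 9 and 4 in WTIEC ileum, and its level was lower in the ileum of both mice. The part of the cells listed here in the Ighm level was not tested.

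Whether the tissue difference itself differed between genotypes was tested as an interaction over all 8 libraries. The difference of the differences was -1.73 ± 0.83 for Igha, -1.45 ± 0.62 for Jchain and -1.43 ± 0.85 for Igkc on the log2 scale, with adjusted p-values of 0.810, 0.795 and 0.838 (edgeR). For Ighm it was 2.86 ± 0.67 (unadjusted p = 0.00384, adjusted p = 0.583) and for Pigr 0.10 ± 0.31 (adjusted p = 0.976). None of the 5 members tested was called, beside 0.00618% of all genes tested, 1 gene. At an unadjusted p under 0.05, 1029 genes passed, and DESeq2 called 36 genes. No gene of the other lists was called. With no filter on low counts, the adjusted p of Igha was 0.00263 at a log2 difference of -1.78.

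**Figure D4:**
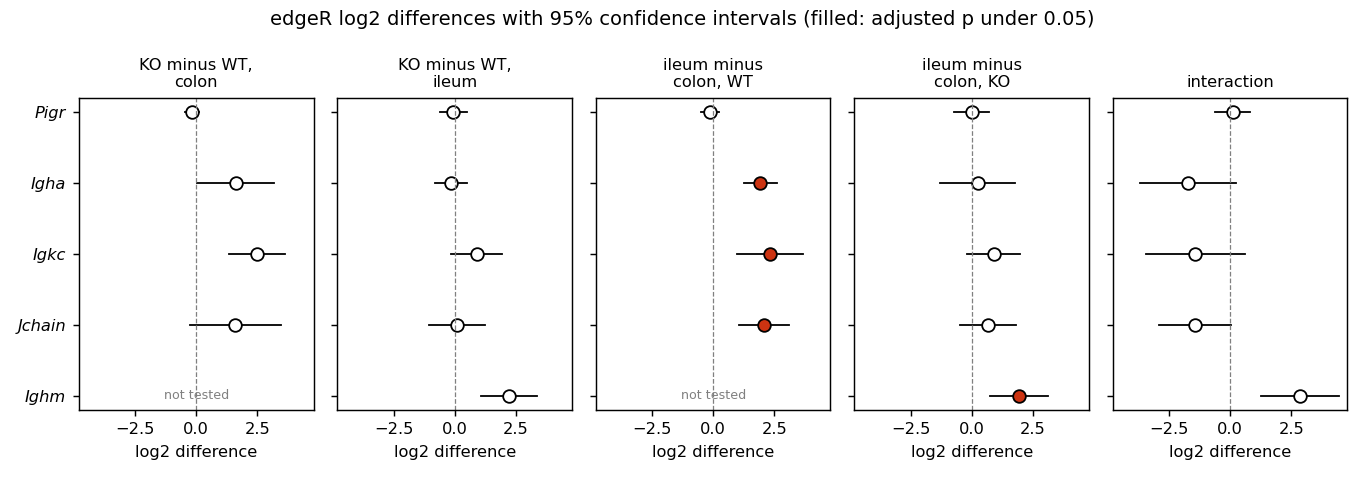
Log2 differences of the 5 members that could be tested, with 95% confidence intervals from edgeR, in the 5 comparisons, with KO for DDX5ΔIEC. Filled circles mark an adjusted p under 0.05: Igha, Igkc and Jchain in WTIEC ileum against colon, and Ighm in DDX5ΔIEC ileum against colon. Pigr stays close to 0 in every panel.

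In order of group means, Igha stood at 4.01 ± 2.15 CPM in WTIEC ileum, 3.60 ± 3.22 in DDX5ΔIEC colon, 3.56 ± 0.794 in DDX5ΔIEC ileum and 1.01 ± 0.126 in WTIEC colon (SD, n = 2 each). The first 3 of these differed by less than their SDs. For Igkc the order was DDX5ΔIEC ileum at 2.31 ± 0.359 CPM, DDX5ΔIEC colon at 1.34 ± 0.877, WTIEC ileum at 1.26 ± 0.895 and WTIEC colon at 0.232 ± 0.106. For Jchain it was DDX5ΔIEC ileum at 1.26 ± 0.331, WTIEC ileum at 1.18 ± 0.683, DDX5ΔIEC colon at 0.822 ± 0.383 and WTIEC colon at 0.276 ± 0.203. WTIEC colon was thus the lowest group for all 3 genes. For Igkc, DDX5ΔIEC colon and WTIEC ileum differed by less than the larger of their SDs, and for Jchain the first 3 groups did so with their neighbours. For Ighm it was instead DDX5ΔIEC ileum at 1.70 ± 0.160, WTIEC colon at 0.674 ± 0.456, DDX5ΔIEC colon at 0.448 ± 0.0101 and WTIEC ileum at 0.346 ± 0.0973, and the last 3 overlapped or differed by less than the largest of their SDs.

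The heavy chain counts were also divided by isotype. These are shares of counts that are not scaled by gene length, so they serve to compare libraries and not classes. Igha had 46.7% and 70.0% of the heavy chain constant region counts in WTIEC colon and 70.6% and 86.0% in DDX5ΔIEC colon. In WTIEC ileum its share was 83.9% and 87.8%, and in DDX5ΔIEC ileum 65.7% and 31.5%. DDX5ΔIEC ileum replicate 2 stood apart. There 44 of 89 counts, 49.4% with a 95% Wilson interval from 39.3% to 59.6%, fell on the IgG genes, 37 of them on Ighg2b, beside 2.44% to 8.96% on IgG genes in the other 7 libraries. The Igha share of that library had an interval from 22.8% to 41.7%, which does not reach that of DDX5ΔIEC ileum replicate 1, from 53.7% to 75.9%. Ighm took 6.29% to 42.2% of the counts. The heavy chain counts per library numbered 30 to 150, the intervals cover counting error only, and reads that fit more than 1 IgG gene were not counted.

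**Figure D5:**
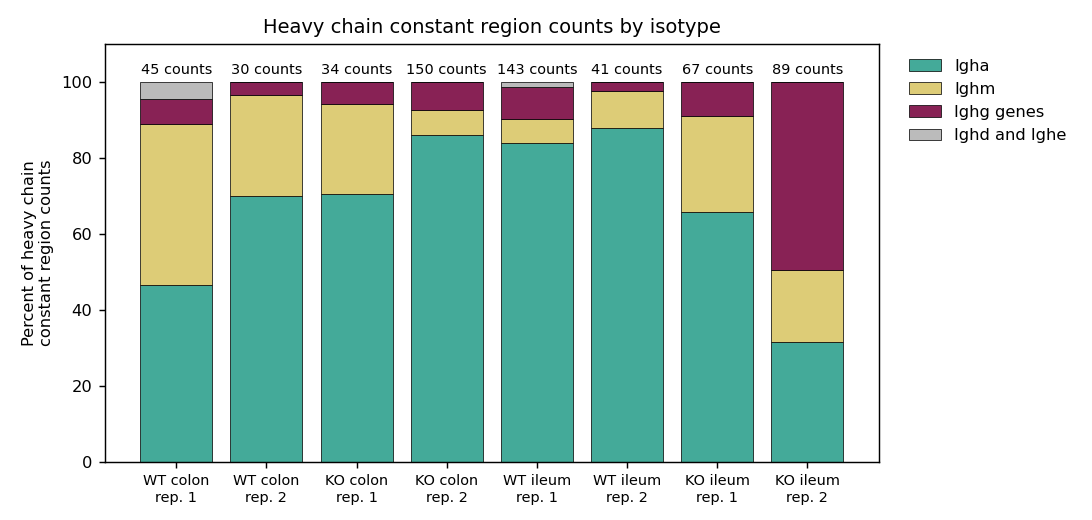
Percent of the heavy chain constant region counts of each library that fell on Igha, Ighm, the Ighg genes, and Ighd with Ighe, with the number of counts above each bar and KO for DDX5ΔIEC. Igha takes 46.7% to 87.8% in 7 libraries and 31.5% in DDX5ΔIEC ileum replicate 2, where the Ighg genes take 49.4%.

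Of the light chain constant region counts, 5 to 45 per library, Igkc took 60.0% in WTIEC colon replicate 1 and 87.5% to 95.6% in the other libraries. The 3 lambda genes Iglc1, Iglc2 and Iglc3 together had 1 or 2 counts in each library. None of the 9 other constant region genes was expressed highly enough to be tested in any comparison.

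The variable gene segments, which differ between B cell clones, were spread thinly. The tables listed 122 segments, 36 of them in both tissues, and each library held 11 to 103 counts on them. None had a count in every library, and 12 had at least 1 count in 4 or more libraries. The 1 segment with at least 10 counts in a library was Igkv8-21, with 13 of the 62 segment counts, 21.0%, in DDX5ΔIEC colon replicate 2, the library with the highest Igha in the colon. In WTIEC ileum replicate 1, whose Igha was similar, the top segment Igkv4-59 had 5 counts of 103, 4.85%, level with 1 other, and 54 segments had a count. Variable segments that are pseudogenes had 0 counts in WTIEC colon and DDX5ΔIEC colon replicate 1, 2 counts in DDX5ΔIEC colon replicate 2, 12 and 9 counts in WTIEC ileum and 2 and 13 counts in DDX5ΔIEC ileum. Their counts were highest in the 3 ileal libraries with the most repeat-like counts. These segments are close copies of each other, and reads that map to several places were dropped, so the count of a single segment is uncertain.

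The plasma cell list is made of 15 genes, some of which the epithelium also expresses. Its summed level was 869 to 1151 CPM, of which Xbp1, a transcription factor of secretory cells, gave 160 to 238 CPM. Txndc5 gave more than Xbp1 in the mean of every group, at 263 to 375 CPM. So did Sdc1 in both colon groups and Edem1 in both ileum groups. Between genotypes none passed the adjusted test, of 7 tested in the colon and 8 in the ileum, beside 0% and 0.697% of all genes tested. In the colon Fkbp11, a folding enzyme of secretory cells, stood at -0.92 ± 0.17 on the log2 scale (edgeR adjusted p = 0.260), opposite to Igha. In the ileum Creld2, a protein of the endoplasmic reticulum, stood at 0.65 ± 0.14 (adjusted p = 0.0634) and Xbp1 at 0.32 ± 0.14 (adjusted p = 0.374). Markers more restricted to plasma cells were scarce. Tnfrsf17, which encodes BCMA, had 1 count in WTIEC ileum replicate 1 and 1 in DDX5ΔIEC ileum replicate 2 and was at 0 elsewhere. Irf4, a transcription factor of plasma cells, had 3 and 2 counts in WTIEC colon, 0 and 1 in DDX5ΔIEC colon and 0 to 3 in the ileum. Slamf7 was at 0.613 ± 0.245 CPM in WTIEC colon and 0.0276 ± 0.0390 CPM in DDX5ΔIEC colon (SD, n = 2 each), also opposite to Igha. In the ileum Slamf7 was at 0.381 ± 0.0483 CPM in WTIEC and 0.561 ± 0.265 CPM in DDX5ΔIEC. Derl3, of the endoplasmic reticulum, had 0 and 7 counts in WTIEC colon, 6 and 12 in DDX5ΔIEC colon, 10 and 14 in WTIEC ileum and 9 and 16 in DDX5ΔIEC ileum. Prdm1, which encodes Blimp1 and is expressed in plasma cells, T cells and the epithelium, was higher in the ileum by 2.50 ± 0.18 in WTIEC and 2.26 ± 0.45 in DDX5ΔIEC (adjusted p = 7.47e-06 and 0.0162). The list did not move one way between tissues. In WTIEC 2 of 7 genes were higher in the ileum and 3 lower, beside 47.4% of all genes called in either direction. The median log2 difference of the list was -0.11. Beside Prdm1, Edem1 was higher by 0.49 ± 0.09. Sdc1, which encodes syndecan of plasma cells and epithelium, was lower at -0.57 ± 0.08, Fkbp11 at -0.68 ± 0.16 and Txndc5 at -0.46 ± 0.11. In DDX5ΔIEC 3 of 8 were higher and 1 lower, beside 30.4% of all genes called. Beside Prdm1 these were Edem1 at 0.74 ± 0.15, Creld2 at 0.58 ± 0.15 and Sdc1 at -0.61 ± 0.14.

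The list of IgA induction and homing holds 15 genes. Between genotypes 7 were tested in the colon and 8 in the ileum, with 0 called in either at an adjusted p under 0.05. Of all genes tested, 0% were called in the colon and 0.697% in the ileum. Itgb7 was at 0.67 ± 0.31 and Tnfsf13b, which encodes the B cell survival factor BAFF, at -0.33 ± 0.19 in the ileum (edgeR adjusted p = 0.414 and 0.529). Between tissues 3 of 8 were higher and 3 lower in WTIEC ileum, and 5 of 8 higher and 1 lower in DDX5ΔIEC ileum, beside 47.4% and 30.4% of all genes called. Ccl25, a chemokine of the small intestine, was at 10.9 and 11.3 CPM in WTIEC colon, 12.1 and 12.9 in DDX5ΔIEC colon, 250 and 232 in WTIEC ileum and 242 and 211 in DDX5ΔIEC ileum. Ccl28, a chemokine of the colon that attracts IgA plasma cells, was at 179 and 176 CPM in WTIEC colon, 196 and 187 in DDX5ΔIEC colon, 62.3 and 45.6 in WTIEC ileum and 64.0 and 41.2 in DDX5ΔIEC ileum. In each tissue the genotypes lay close together for both chemokines. The ileum was higher in Ccl25 by 4.44 ± 0.10 in WTIEC and 4.20 ± 0.16 in DDX5ΔIEC on the log2 scale, and lower in Ccl28 by -1.74 ± 0.11 and -1.87 ± 0.18. Tnfsf13b was higher in the ileum by 1.80 ± 0.17 and 1.94 ± 0.26, and Tnfsf13, which encodes APRIL, was lower in WTIEC ileum at -0.98 ± 0.15. Itga4, an integrin chain, was higher in DDX5ΔIEC ileum by 2.26 ± 0.41. Each of these had an edgeR adjusted p under 0.05. Ccr10, the receptor for CCL28 on IgA plasma cells, had 0 to 3 counts per library.

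The homing integrins Itga4 and Itgb7, which T cells and plasma cells share, went the other way from Igha in the colon, at -1.26 ± 0.43 and -1.39 ± 0.53 between DDX5ΔIEC and WTIEC (edgeR adjusted p = 0.377 and 0.414). Both met the criterion used in the study, 2 of the 7 genes of the list tested in the colon, beside 6.71% of all genes. Itgb7 had 48 and 36 counts in WTIEC colon and 8 and 24 in DDX5ΔIEC colon, the order that the T cell list showed.

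Across the 8 libraries, on log2 CPM, Igha varied with Jchain (Pearson r = 0.868), with Igkc (r = 0.866) and much less with Ighm (r = 0.130) or Pigr (r = 0.121). These are descriptions, over libraries that share mice, tissue and low counts. Among 13352 genes with a mean of at least 20 counts, the 5 whose pattern was most like that of Igha were Gab1 (r = 0.942), Manea (0.933), Gm13212 (0.925), Erbb3 (0.925) and the processed pseudogene Gm9403 (0.907). None of these is a gene of B lineage cells by name or by the lists used here. The 5 most like Pigr were Ceacam1 (0.925), an adhesion protein of epithelial cells, Cks2 (0.920), Nlrc5 (0.904), an activator of MHC class I genes, Ssrp1 (0.902) and Jagn1 (0.901). With 8 libraries and this many genes compared, values of this size were reached by genes with 12 to 34 counts as well as by abundant genes.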

How the data were processed

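The authors prepared stranded libraries from ribosome-depleted total RNA, mapped both ends of each fragment to the mm10 genome by STAR 2.6.1a, counted uniquely mapped reads over exons with featureCounts, and deposited whole-number counts, as a colon table of 28349 genes and an ileum table of 38649. These counts are the only values used. Normalized values and the authors' own comparison (fold changes and p-values from DESeq2 1.18.1, with a covariate for harvest) are in the same tables and were not used, and 0 per-sample count columns were left without a sample. A gene listed in 1 table was set to 0 in the other.

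Groups came from the labels. Genes were filtered with filterByExpr at a minimum count of 10, scaled by TMM and tested with edgeR 4.0.16 (R 4.3.3) by the quasi-likelihood test, with Benjamini-Hochberg adjustment over all genes tested. Genotypes were compared within a tissue with a block for the replicate number, since the study describes pairs of cohoused littermates and a harvest covariate. Deviations of same-numbered libraries correlated at -0.0302 in the colon and 0.171 in the ileum over 13355 genes. Tissues and the interaction had the mouse as a block, since the study's own sheet of normalized values carries the same mouse number for the colon and ileum library of 1 replicate number. Intervals of log2 differences are 95% intervals from the fit, and shares have 95% Wilson intervals. With 2 libraries a group, p-values rest on the spread shared across genes. The fits were also run on simulated counts that had no replicate or mouse effect and changes only in genes above a set mean count. Most B lineage members lay below that mean, so the simulation does not speak for them.

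Alternatives were DESeq2 1.42.0, no block, RLE scaling, no filter, leaving out the repeat-like rows, library sizes from protein coding genes, all 8 libraries in 1 fit, and each library left out in turn. The members and gene lists were chosen with earlier results of these data known. From each list the text names genes called at an adjusted p under 0.05, the 4 with the smallest p at most, or otherwise the 2 with the smallest p (in the interaction, where no list gene was called, counts only). Txndc5 and the defining markers Ms4a1, Cd79b, Pax5, Cr2, Fcer2a, Gp2, Tnfrsf17, Irf4, Derl3, Slamf7 and Ccr10, and Usf1 and Usf2, were named beyond that rule after their values were seen. So were Col3a1, Vim and Pecam1 between the genotypes in the ileum. Gene positions are from GENCODE for GRCm38. Mzb1 has another identifier version there and is given without a position.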

Additional observations from a re-analysis of the deposited data

Results flagged for a closer look

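Ighm, the IgM heavy chain constant region, had a lower level in the ileum than in the colon of both WTIEC mice and a higher one in both DDX5ΔIEC mice. The log2 ratio of ileum over colon within a mouse was -1.26 and -0.34 in the WTIEC mice and 1.85 and 2.00 in the DDX5ΔIEC mice. It rests on 4 to 19 counts per library. How many of all genes changed direction between the genotypes in this way was not counted. Tested as an interaction over all 8 libraries, the difference was 2.86 ± 0.67 (SE) on the log2 scale, with an unadjusted p of 0.00384 and an adjusted p of 0.583 (edgeR), so it did not pass.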

How the results depend on the processing

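The depth limits the B lineage genes: no library had over 129 counts on any of them, and with 2 libraries a group 1 library decides most of their calls. Of 273 log2 differences of members under alternatives, 236 kept their direction and side of the threshold, 13 lost a call, 6 gained one and 18 changed sign. All 18 were values of Igha, Jchain or Pigr that were not called. Of 56 group means under other scalings, 6 moved by more than 1 SD, all with library sizes from protein coding genes. Unless named, causes were not tested.

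Without the replicate number as a block, 5 genes were called between genotypes in the colon in place of 0, 1 in the ileum in place of 98, and 2 in the interaction in place of 1, and Igha in DDX5ΔIEC ileum against colon was at -0.0036. The block changed no call of a member at the adjusted threshold. DESeq2 with the block called 117 genes in the colon, 39 in the ileum, 4579 and 2985 between the tissues in WTIEC and DDX5ΔIEC, and 36 in the interaction. It left 1 member called between tissues in WTIEC and 0 in DDX5ΔIEC and 1 at the study's criterion in the colon, and put Pigr at 0.012 in DDX5ΔIEC ileum against colon, as RLE scaling did (0.012). With no filter on low counts, 423 genes were called in the ileum and 318 in the interaction, with 1 member called in each (Ighm and Igha) and 2 members at the criterion in the ileum. In the ileum 20 genes were called without the repeat-like rows, and 20 with library sizes from protein coding genes. All 8 libraries in 1 fit with no block gave 10 genes in the colon, 7 in the ileum and 2 in the interaction, and Igha in DDX5ΔIEC ileum against colon at -0.033.

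With 1 library left out at a time, without a block, 0 to 3 members and 0 to 2506 genes were called in the colon, with 0 to 3 members at the criterion. In the ileum 1 to 23 genes were called, with 1 to 2 members at the criterion. Between tissues 0 to 3 members and 4389 to 7288 genes were called in WTIEC, 0 to 0 members and 2444 to 3201 genes in DDX5ΔIEC, and 0 to 30 genes in the interaction. The log2 difference in the ileum ranged from -0.63 to 0.51 for Igha, -0.40 to 0.85 for Jchain and -0.22 to 0.098 for Pigr. Between tissues Pigr ranged from -0.29 to 0.026 in WTIEC and -0.16 to 0.14 in DDX5ΔIEC, Igha from -0.70 to 1.44 in DDX5ΔIEC, and the interaction of Pigr from -0.059 to 0.26.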
